A study of Rattus norvegicus with 16 samples.

Results

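The genes described here encode the proton pump of the lysosome, its cathepsin proteases and its Lamp membrane proteins, measured in the whole blood of rats that had received only saline. They were chosen by symbol: every subunit of the vacuolar proton ATPase (V-ATPase) whose symbol begins with Atp6v0 or Atp6v1, every cathepsin whose symbol is Cts with 1 further letter and any digits, and Lamp1 to Lamp3, leaving out Ctsg. The rule found 36 of the 18031 genes that all 16 libraries list, of which 9 belong to the membrane sector V0, 12 to the cytosolic sector V1, 12 to the cathepsins and 3 to the Lamps. Another 5 matching genes were not listed for every library and entered no test. Of these, Atp6v1b1 was listed in 13 libraries with a single count in 1 of them, while Ctsj, Ctsm, Ctsq and Ctsr were listed in 2 libraries at 0.

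The 16 libraries came from adult male Sprague-Dawley rats of 85 to 90 days and form a single group. Saline (1 ml/kg) was injected 4 times, once every 2 h, during which the rats had neither food nor water, and they were killed 3 h after the last injection. Blood was drawn by needle from the heart, globin mRNA was depleted, and the RNA was sequenced. Since no treated library was analysed here, the comparisons ask how the lysosomal genes vary among control animals and which blood cell genes they vary with.

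Totals ranged from 21466776 to 31189549 counts per library, and 3 counts, taken as the detection floor, corresponded to 0.096 to 0.14 CPM, that is counts scaled to the library total. A code in the file names split the libraries into 6 sets, named runs A to F here for short, and what the code marks was not stated. The study repeated its experiment over time, and the labels do not assign libraries to experiments. The control group sizes it reports for its earliest dates would fit run A, runs B and C, and runs D to F, in order of control number. A difference between runs therefore cannot be told apart from one between experiments. Control 2 stood apart in liver genes, with a mean log2 level of 14.84 against 10.5 in the next library (control 8), and control 8 had the highest neutrophil level. Control 10, with the highest reticulocyte level, stood apart with a heart muscle level of 7.35 against 4.7 in the next library (control 2) and a platelet level of 8.44 against 10.4 in the next lowest (control 12).

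The V-ATPase is a rotary motor. Its V1 sector splits ATP in the cytosol and turns a ring of proteolipids in the V0 sector, which carries protons into the lysosome. The acid activates the cathepsins, most of which are cysteine proteases, while cathepsins D and E are aspartic proteases and cathepsin A is a serine carboxypeptidase. Lamp1 and Lamp2 are heavily glycosylated proteins that line the inner face of the lysosomal membrane. In blood, monocytes digest engulfed material in lysosomes, neutrophils carry related proteases in their granules, and reticulocytes remove their organelles in part through lysosomes.

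Many lysosomal genes carry an E-box near their start that the factors TFEB, TFE3 and MITF recognise. The 8-letter core of that element was searched in promoters from RefSeq (GRCr8), each holding 250 bases before to 50 bases after the start of a gene. A promoter was found for 29 of the 36 genes (Ctsl1 under its current symbol Ctsl). The core TCACGTGA, which reads the same on both strands, occurred in 4 of these 29 (13.8%) and in 1.02% of all 21842 promoters of protein-coding genes. The shorter CACGTG within it occurred in 5 of 29 (17.2%) against 7.01%, the fifth gene being Ctsf. The core with a further G before it and C after it occurred in none of the 29 and in 0.311% of all. The 30 bases around each core are printed to show where this shared stretch lies in genes of 3 classes. The core is in capitals, the flanks differ, and the genes are read 5′ to 3′ on the minus strand.
Atp6v0d1, chr19:50357283-50357312, core beginning 53 bases before the start: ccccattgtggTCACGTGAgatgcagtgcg
Atp6v0e1, chr10:17007115-17007144, core beginning 24 bases after the start: tcgcgcgccggTCACGTGAgcctctgttga
Ctsd, chr1:206968814-206968843, core beginning 11 bases before the start: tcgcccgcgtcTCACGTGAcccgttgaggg
Lamp1, chr16:83075111-83075140, core beginning 66 bases before the start: agaccctcggcTCACGTGAccggcgggcgc
Lamp1, chr16:83075084-83075113, core beginning 39 bases before the start: cgcggcactgtTCACGTGAcaggcgctgcc
A match is a description of the letters and not a measured site of binding.

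The V0 sector holds the proton channel and the ring that turns against it. Levels are counts divided by DESeq2 size factors (normalized counts). They also depend on transcript length, so a share of counts given here is not a share of transcripts, and no gene is called more expressed than another. Atp6v0c, the proteolipid of the rotating ring, ranged from 4081 (control 12) through a median of 7815 to 13822 (control 8). Atp6v0a1, an isoform of the subunit that holds the proton channel, ranged from 1363 (control 2) through 3383 to 4368 (control 8). Atp6v0d1, which couples the ring to the stalk, ranged from 2025 to 4040 with a median of 2658, and Atp6v0e1, a small membrane subunit, from 2243 to 6405 with a median of 3211. Control 8 was thus the highest library for 3 of these 4 genes. Among the alternative isoforms, Atp6v0a2 took 6.22% ± 2.13 (SD, n = 16) of the counts of the a subunit, counted with Tcirg1, its a3 isoform, which took 16.6% ± 6.12 and whose symbol the rule does not match. Atp6v0e2 took 7.51% ± 2.55 of the counts of the e subunit. Atp6v0a4, known from the kidney, had a count in 3 libraries (at most 2.94 normalized counts) and Atp6v0d2, known from osteoclasts, in 2 (at most 0.895), and both were too low to be tested.

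In the V1 sector, Atp6v1g1 and Atp6v1f varied most among the 4 genes with the most counts. Atp6v1g1, part of the stalk that holds the motor still, ranged 5.5-fold, from 2437 (control 4) through 5826 to 13403 (control 8). Atp6v1f, a subunit of the rotor, ranged 6.54-fold, from 764.8 (control 1) through 2805 to 5004 (control 8). Atp6v1b2, the B subunit of the ATP-splitting head, ranged from 1671 (control 6) through 3165 to 5700 (control 8), and Atp6v1c1, a subunit at the joint of both sectors, from 812.7 (control 4) through 1267 to 1832 (control 15). Atp6v1h, a regulatory subunit, was among the 3 steadiest genes described here, between 358.9 and 673.5 with a coefficient of variation (CV) of 15.4%. The isoforms Atp6v1c2 (0 to 10.7), Atp6v1e2 (0 to 1.56) and Atp6v1g2 (0 to 3) did not pass the filter on low counts, and Atp6v1g3 passed it with 7.47 to 30.4 normalized counts.

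Ctsb and Ctsd together took 76.8% ± 7.39 (SD, n = 16) of the normalized counts of all 12 cathepsins, from 67.7% in control 15 to 89.9% in control 10. Ctsb, a cysteine protease, ranged 4.14-fold, from 31582 (control 3) through 51795 to 130870 (control 10), and 3.55-fold without control 10. Control 10 had the smallest size factor of the 16 libraries (0.642), which raised its normalized counts relative to the others. The highest Ctsb count before scaling was 101553, in another library. Ctsd, the main aspartic protease of lysosomes, ranged 4.33-fold, from 11208 (control 3) through 19097 to 48505 (control 5). The sum over the 10 other cathepsins ranged less, from 16612 (control 4) to 35831 (control 8), a ratio of 2.16, against 3.16 for all 12. This depended on the scaling. With scaling to total counts the 10 others ranged 2.68-fold (lowest in control 10, highest in control 15). All 12 together then ranged 2.23-fold (lowest in control 2, highest in control 16). Ctsh, an aminopeptidase, ranged from 2649 (control 4) through 5045 to 10067 (control 8).

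**Figure D1:**
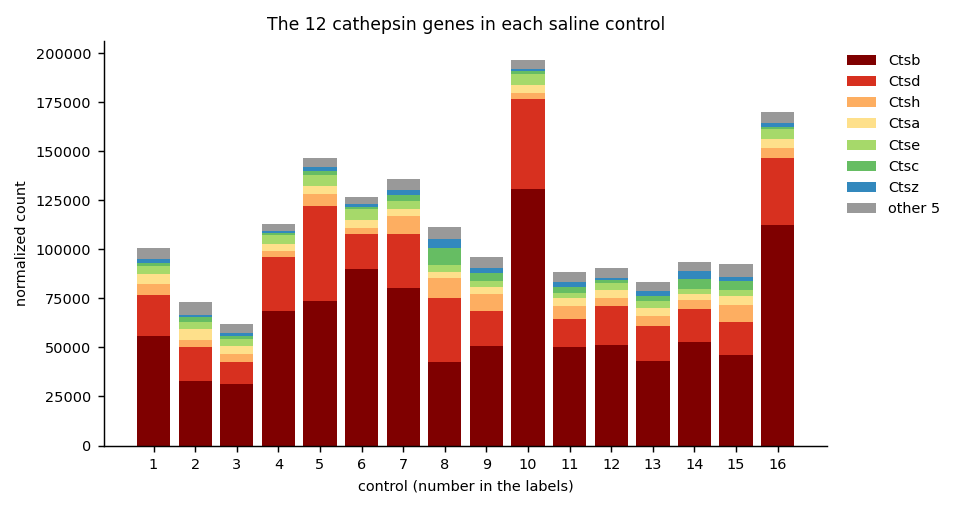
Normalized counts (y axis) of the 12 cathepsin genes stacked for each of the 16 saline controls (x axis), with no error because each bar is 1 library. At this scaling Ctsb and Ctsd made up most of the height and of its variation, from a sum of 62169 in control 3 to 196444 in control 10. With scaling to total counts the sum was lowest in control 2 (67664) and highest in control 16 (150633).

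Several cathepsins are known from particular blood cells. Ctsc, which activates the serine proteases of neutrophil granules, ranged 8.13-fold, from 1056 (control 4) through 2260 to 8584 (control 8), and 4.79-fold without control 8. Ctsz, an exopeptidase, ranged 6.53-fold, from 744.6 (control 4) through 1843 to 4864 (control 8). Both were lowest in the same library and highest in the same library as Lamp2. Ctss, the protease of antigen-presenting cells, had the lowest CV (14.2%) of the 28 genes whose mean reached 100, followed by Atp6v1h and by Ctsa (16.5%). Ctsw, known from cytotoxic lymphocytes, ranged from 665.8 to 1505. Ctsk, the collagenase of osteoclasts, reached 49.3 normalized counts at most.

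Ctsl1 had the highest CV, and this rested in large part on 1 library. It ranged from 123.8 (control 4) through a median of 233.2 to 1851 (control 2), with a mean of 394.9 ± 432.6 (SD, n = 16). Without control 2, the library with the highest liver level, the mean was 297.8 ± 197.4 (SD, n = 15), and the CV fell from 109.5% to 66.3%. The part of liver RNA in this value was not tested.

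Among the Lamps, Lamp2 varied most between libraries. Lamp2 ranged 6.89-fold, from 1164 (control 4) through 2409 to 8023 (control 8), and 4.06-fold without control 8, where the highest was 4731 (control 9). Lamp1 ranged 2.7-fold, from 1849 (control 10) through 2883 to 4988 (control 8). Lamp3, which is known from maturing dendritic cells, stayed between 22.5 and 46.3.

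The median CV of these 28 genes was 31.2% (14.2% to 109.5%), against 24.8% for all 8635 genes whose mean normalized count reached 100, and 18 of the 28 lay above it. With scaling to total counts the medians were 31.3% and 31.6%, and 13 of the 28 lay above, so this difference depended on the scaling. The summed counts were 35843 ± 10419 (SD, n = 16) for the V-ATPase, 111210 ± 35973 for the cathepsins and 6011 ± 2396 for the Lamps. The V-ATPase sum was lowest in control 3 (21617) and highest in control 8 (59402), and the Lamp sum was lowest in control 4 (3576) and highest in control 8 (13039), with 8531 in control 14 as the highest without it. These extremes also depended on the scaling. With scaling to total counts the V-ATPase sum was lowest in control 10 (22049) and highest in control 15 (52087). The Lamp sum was then lowest in control 10 (2623) and highest in control 8 (9505).

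The members did not vary as one block. Over the 378 pairs of the 28 genes, the median Pearson correlation of log2 levels across the 16 libraries was 0.25 (-0.76 to 0.96), which is a description of genes that share libraries and scaling. The 105 V-ATPase pairs had a median of 0.39 and the 55 cathepsin pairs one of -0.02. The closest pair was Atp6v1g1 and Atp6v1b2 (0.96), and the most opposed was Lamp2 and Atp6v0e2 (-0.76). Ctsb, Ctsd and Ctse had correlations of 0.70, 0.70 and 0.71 with each other.

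**Figure D2:**
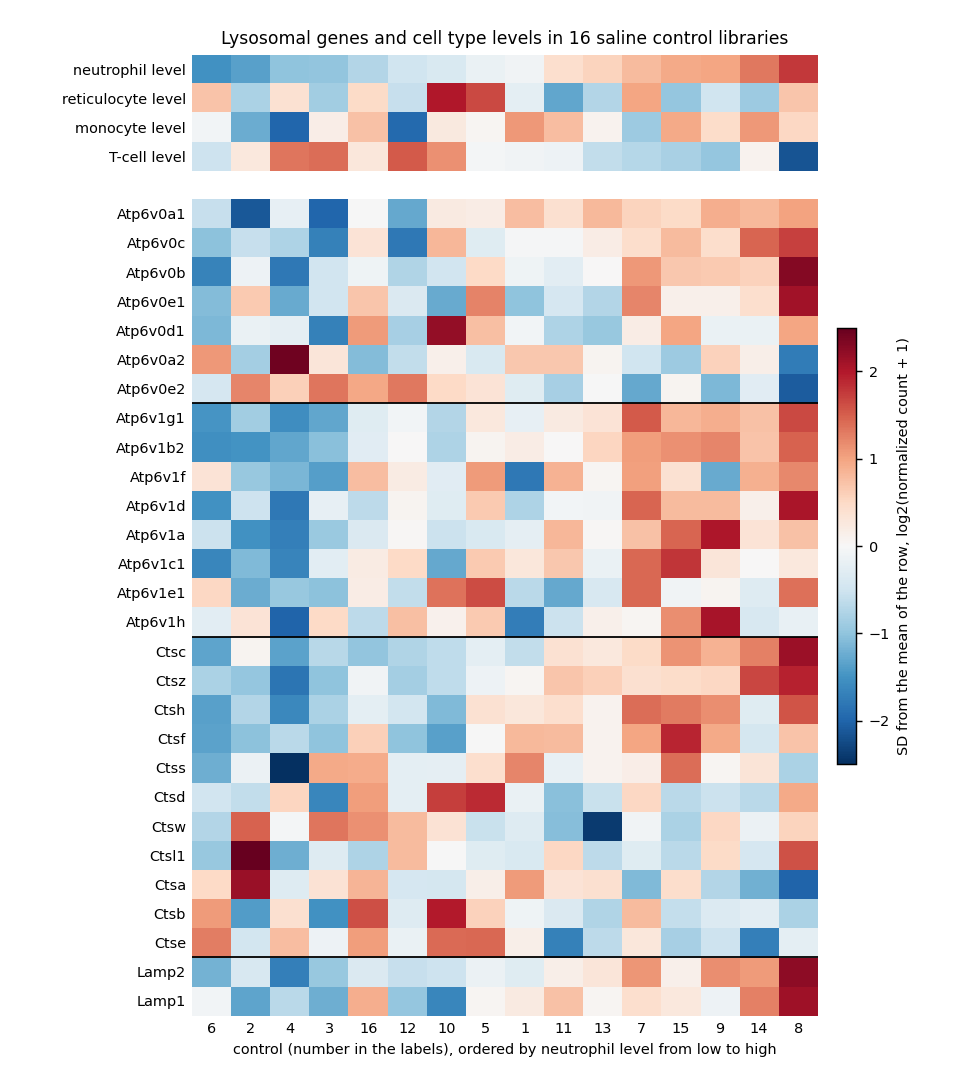
Levels of the 28 lysosomal genes whose mean reached 100 (rows, by V0, V1, cathepsin and Lamp, each ordered by slope against the neutrophil level) in 16 controls (columns, ordered by neutrophil level), colored by SD from the mean of the row on the log2(normalized count + 1) scale, under the levels of 4 blood cell lists. The upper genes of each block, such as Atp6v1g1, Ctsc and Lamp2, went from blue on the left to red on the right. In contrast, Ctsd and Ctse were highest in controls 10 and 5, the libraries with the highest reticulocyte levels. Ctsb was highest in controls 10 and 16.

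Marker lists gave each library a level for each blood cell, which is the mean log2(normalized count + 1) over the genes of that list whose mean normalized count reached 10. Every library held the genes that define blood, from 136028 normalized counts of the reticulocyte gene Alas2 and 1014 of the T-cell gene Cd3e upward. The lists were not equally coherent. The 11 neutrophil genes used (such as S100a8, Mmp8 and Csf3r) had a median correlation of 0.92 with each other, the 10 reticulocyte genes (such as Alas2 and Slc4a1) 0.79, the 10 T-cell genes 0.67 and the 8 monocyte genes (such as Csf1r, Cd14 and Cx3cr1) only 0.27. Among the 10 reticulocyte genes, Gata1 is listed under separate entries that each count as a gene. The neutrophil level spanned 9.62 (control 6) to 14.8 (control 8) log2 units, the reticulocyte level 12.8 (control 11) to 14.6 (control 10), the T-cell level 9.71 (control 8) to 10.8 (control 12) and the monocyte level 7.82 (control 4) to 9.3 (control 1). In whole blood, more cells of a type and more RNA per cell cannot be told apart.

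Of the 36 genes, 31 passed the filter on low counts and were fitted against each level with edgeR (quasi-likelihood F-test, Benjamini-Hochberg adjustment over all 12761 genes tested, or 13022 for the T-cell level). A slope is the log2 change for 1 SD of the level, which was 1.57 log2 units for neutrophils, 0.48 for monocytes, 0.56 for reticulocytes and 0.31 for T cells.

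Against the neutrophil level, 14 of the 31 genes rose and 1 fell at an adjusted p under 0.05. Of all genes tested, 14% rose and 9.59% fell. The median slope was 0.22 for the lysosomal genes and -0.04 for all genes. Scaled to total counts, 7 rose and 1 fell, where 808 of all genes rose and 131 fell. Of all calls, 86.0% were then rising in place of 59.4%. The rising genes came from every class: 3 of 7 tested V0 genes, 5 of 9 V1 genes, 4 of 12 cathepsins and 2 of 3 Lamps.

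The steepest was Ctsc, with 1065 normalized counts in control 6, which had the lowest neutrophil level, and 8584 in control 8, which had the highest. Its slope was 0.74 ± 0.10 (SE), a 1.67-fold increase per SD (edgeR adjusted p = 2.56e-05), and with run as a term it was 0.84. Ctsz rose by 0.64 ± 0.08 per SD (edgeR adjusted p = 8.47e-06) and Ctsh by 0.51 ± 0.09 (edgeR adjusted p = 0.000379). All 3 act as exopeptidases, which remove residues from the ends of proteins. Ctsf, another cysteine protease, rose by 0.40 ± 0.11.

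Lamp2 rose by 0.63 ± 0.08 per SD (edgeR adjusted p = 8.44e-06), whereas Lamp1 rose by 0.26 ± 0.07 (edgeR adjusted p = 0.0146, and 0.0998 without control 8, with a slope of 0.21). Lamp2 was 1507 in control 6, at the lowest neutrophil level, and 8023 in control 8, at the highest. Lamp3 had a slope of -0.19 that did not pass the adjustment in edgeR (adjusted p = 0.103).

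Among the pump genes, Atp6v1g1 rose by 0.71 ± 0.08 per SD (edgeR adjusted p = 3.66e-06) and Atp6v1b2 by 0.56 ± 0.06 (edgeR adjusted p = 1.27e-06). Both belong to V1. Of the V0 genes, Atp6v0a1 rose by 0.39, Atp6v0c by 0.38 and Atp6v0b, a second proteolipid, by 0.30. The V1 genes Atp6v1d of the rotor and Atp6v1a of the catalytic head rose by 0.35 and 0.27, and Atp6v1c1 by 0.22, a call that was lost in 8 of 23 refits, among them those without control 2, 4, 6, 7 or 15, with slopes of 0.17 to 0.28 over the 23. The slopes of Atp6v0d1, Atp6v1e1 and Atp6v1h lay between 0.056 and 0.097 and did not pass, so subunits of 1 complex did not have equal slopes.

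The gene that fell in edgeR was an isoform. Atp6v0e2 ranged from 166.0 (control 8) through 253.5 to 330.6 (control 3), with a slope of -0.22 ± 0.06 (edgeR adjusted p = 0.0139). Without control 8 no lysosomal gene fell, and without control 2, 4 or 15 there were 2. Its counterpart Atp6v0e1 had a slope of 0.22 ± 0.09 that did not pass the adjustment (edgeR adjusted p = 0.104). The share of Atp6v0e2 in the counts of the e subunit ran from 2.53% to 11.3%.

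Rank and resampling tests gave similar relations for the steepest genes. Across the 16 libraries, Pearson's r with the neutrophil level was 0.946 for Atp6v1b2, 0.923 for Atp6v1g1, 0.906 for Ctsz, 0.902 for Lamp2 and 0.896 for Ctsc. Spearman's rho was 0.953, 0.932, 0.894, 0.918 and 0.894, and each of these 5 genes had an adjusted permutation p (100000 permutations) of at most 0.000593 for r and at most 0.000538 for rho over all genes tested. Without controls 8 and 14, the 2 libraries farthest from the median level, r was between 0.833 and 0.953. Centered within runs it was between 0.895 and 0.944. Runs E and F held 1 library each, which a centered r or a run term leaves without weight. By the permutation test of r, 17 of the 31 genes were called with all libraries, where the share of all genes was 24.0%. Among the 17, Atp6v0e2 (r = -0.739), Ctsa (r = -0.668) and Lamp3 (r = -0.621) fell (adjusted permutation p = 0.00855, 0.0241 and 0.0477). Without those 2 libraries 12 were called, all of them rising, and the share of all genes was not recorded.

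**Figure D3:**
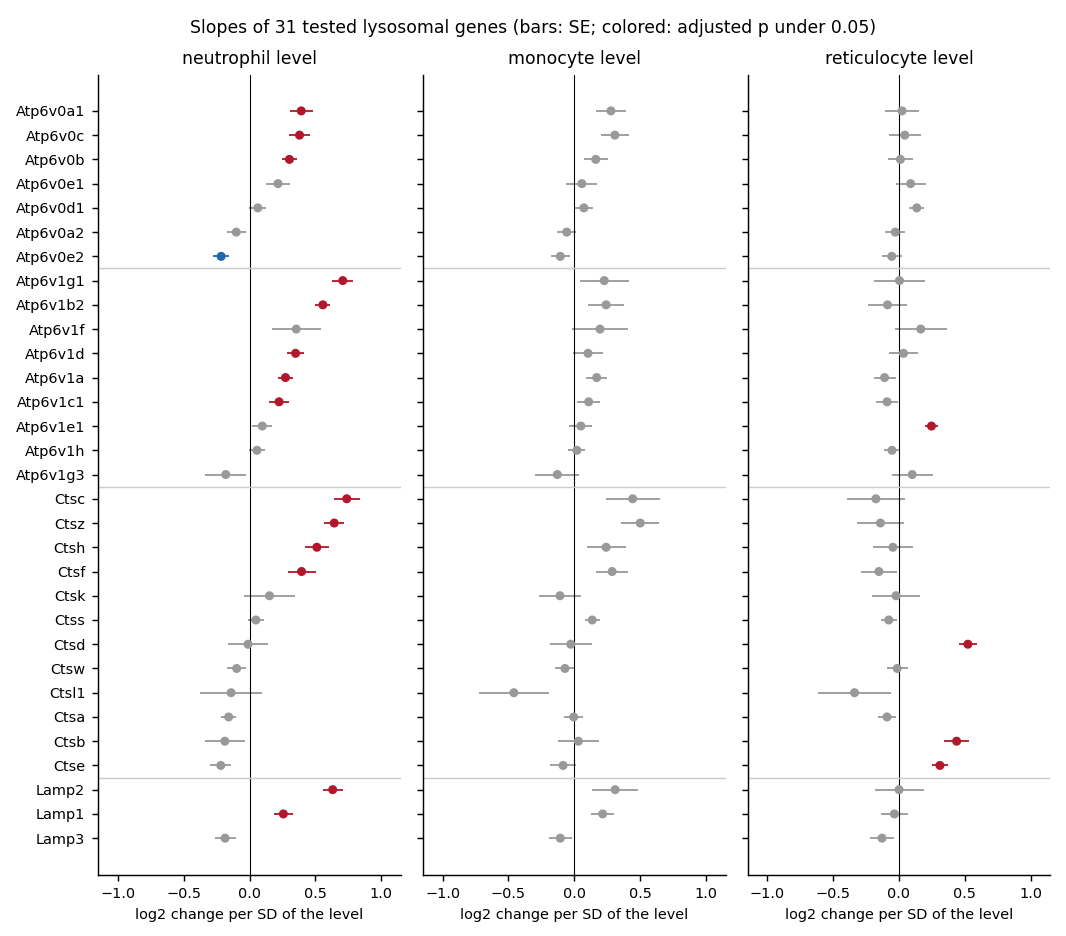
Slopes (points, log2 change per SD of the level) with SE (bars) of the 31 tested genes against the neutrophil, monocyte and reticulocyte levels, from edgeR fits of 16 libraries. Red points rose and blue points fell at an adjusted p under 0.05. Red points stand in all 4 classes for neutrophils, nowhere for monocytes and at Ctsd, Ctsb, Ctse and Atp6v1e1 for reticulocytes.

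Against the monocyte level none of the 31 genes passed the threshold. Of all genes tested, 0.00784% rose and 0.0235% fell, so this level called hardly any gene, its own 8 genes included. The 1 gene called as rising was Cd68 (0.44 ± 0.07, edgeR adjusted p = 0.0305). It encodes a lysosomal membrane protein and belongs neither to the genes chosen here nor to the monocyte list. At an unadjusted p under 0.05, 8 of the 31 genes rose and none fell in edgeR, where 15.2% of all genes passed in either direction. DESeq2 called 1 rising, where it called 0.874% of all genes. The steepest slopes were those of Ctsz (0.50 ± 0.15, edgeR adjusted p = 0.179), Ctsc (0.44 ± 0.21, edgeR adjusted p = 0.318), Lamp2 (0.31 ± 0.18, edgeR adjusted p = 0.414) and Atp6v0c (0.31 ± 0.11, edgeR adjusted p = 0.218). The slope of Ctss was 0.14 ± 0.06 (edgeR adjusted p = 0.286).

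The monocyte genes that the study chose, without Arg1, gave another count, 12 rising and 2 falling, where 12.7% of all genes rose and 4.15% fell. Its 7 entries (Ccr1, Cd14, Cd163, Cd68, Itgax and Nos2, which is listed as 2 genes and so counts double) had a level that correlated with the neutrophil level at r = 0.917 (rho = 0.912, both permutation p = 1e-05, the smallest that 100000 permutations could give, and adjusted p = 4e-05 over 4 relations), and at r = 0.884 without the 2 farthest libraries. Without Nos2 these values were r = 0.813 (permutation p = 0.00021) and rho = 0.803 (permutation p = 0.00037), a setting added after seeing the data. The monocyte list used in the fits correlated with the neutrophil level at r = 0.481 (permutation p = 0.0598, adjusted p = 0.139 over 6 relations) and rho = 0.574 (permutation p = 0.022, adjusted p = 0.0661). Of the 8 genes of the latter list, 3 rose with the neutrophil level, among them Cd14, the endotoxin co-receptor, by 0.88 ± 0.14 (edgeR adjusted p = 0.000232), while Csf1r had a slope of -0.17 ± 0.12 (edgeR adjusted p = 0.298). The part of neutrophil RNA in the 12 calls was not tested.

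When both levels were fitted together, the difference of slopes could be tested. The neutrophil slope was above the monocyte slope for 3 lysosomal genes, where 3.17% of all genes were called in that direction. The differences, monocyte minus neutrophil slope, were -0.86 ± 0.15 in log2 per SD for Atp6v1g1 (edgeR adjusted p = 0.00276), -0.67 ± 0.16 for Lamp2 (edgeR adjusted p = 0.0242) and -0.57 ± 0.11 for Atp6v1b2 (edgeR adjusted p = 0.00676). Atp6v1g1 kept its call in all 21 refits, while Lamp2 lost it in 5 of 21 and Atp6v1b2 in 2 of 21. The count of genes was 5 without control 4. With scaling to total counts it was 1, where 98 of all genes were called. No lysosomal gene had a monocyte slope above its neutrophil slope in edgeR (1 at an unadjusted p under 0.05, 1 called by DESeq2), where 0.572% of all genes were. Among those genes were Csf1r, a monocyte receptor that is itself part of the monocyte level, and Cd68, a lysosomal membrane protein of the Lamp family that marks mononuclear phagocytes and is not part of it, with differences of 0.83 ± 0.13 (edgeR adjusted p = 0.00129) and 0.60 ± 0.13 (edgeR adjusted p = 0.0123). For Ctsc, Ctsh and Ctsz the differences were -0.80, -0.49 and -0.33 and did not pass.

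Against the reticulocyte level 4 of the 31 genes rose and none fell, where 6.47% of all genes rose and 0.133% fell. They were Ctsd (0.52 ± 0.07 log2 per SD, edgeR adjusted p = 6e-05), Ctsb (0.44 ± 0.10, edgeR adjusted p = 0.00617), Ctse (0.31 ± 0.06, edgeR adjusted p = 0.00231) and Atp6v1e1 (0.25 ± 0.05, edgeR adjusted p = 0.00478). Ctse, an aspartic protease that red cells carry at their membrane, ranged from 2405 (control 14) through 3674 to 5631 (control 5). Atp6v1e1, a stalk subunit of the pump, ranged from 901.0 (control 11) through 1142 to 1719 (control 5).

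None of these 4 genes was called against the neutrophil level, where their slopes were -0.01 for Ctsd, -0.19 for Ctsb, -0.22 for Ctse and 0.10 for Atp6v1e1. A fit of both levels together was added after the separate slopes had been seen. The reticulocyte slope was above the neutrophil slope for Ctsb, Ctsd and Ctse, where 6.43% of all genes were called, by 0.48 ± 0.12, 0.46 ± 0.09 and 0.46 ± 0.05 (edgeR adjusted p = 0.0113, 0.00141 and 1.73e-05). The neutrophil slope was above for 11 lysosomal genes, where 11.9% of all genes were called, with reticulocyte minus neutrophil slopes of -0.89 ± 0.14 for Ctsc, -0.68 ± 0.11 for Ctsz and -0.66 ± 0.11 for Atp6v1g1. With run as a term these counts were 1 (Ctse) and 0, where 46 and 286 of all genes were called. The differences themselves were -1.03 for Ctsc, -0.54 for Ctsz and -0.65 for Atp6v1g1, and 0.64 for Ctsb, 0.41 for Ctsd and 0.46 for Ctse. With scaling to total counts the counts were 2 and 14, where 256 and 2122 of all genes were called. The median difference of all genes then moved from 0.02 to -0.12, and the share of all calls with the reticulocyte slope above from 35.0% to 10.8%.

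The reticulocyte calls changed with the scaling and with run as a term, and without control 10 Ctsb was no longer called (slope of 0.39, edgeR adjusted p = 0.0986). In the refit scaled to total counts, the level itself kept its size factors. The median slope of all 12761 genes then moved from -0.05 to -0.27, and the split of all calls from 98.0% to 8.18% rising. The lysosomal genes moved from 4 rising to 1 rising (Ctsd) and 8 falling, where 352 of the 12761 genes rose and 3950 fell. Relative to that median, Ctsd lay at 0.57, Ctsb at 0.49, Ctse at 0.36 and Atp6v1e1 at 0.29. With run as a term, the slopes of the 4 genes were between 0.24 and 0.60, and neither they nor any other gene passed. Pearson's r with the reticulocyte level was 0.895 for Ctsd, 0.855 for Ctse, 0.835 for Atp6v1e1 and 0.763 for Ctsb (rho = 0.9, 0.865, 0.768 and 0.7). The permutation p of r, adjusted over all genes tested, was 0.000555, 0.0015, 0.00335 and 0.013, and that of rho was 0.00175, 0.00268, 0.0284 and 0.068. Without controls 5 and 10, r was 0.799, 0.79, 0.746 and 0.675, and Ctsd and Ctse alone kept an adjusted permutation p under 0.05. Centered within runs, r was 0.734, 0.793, 0.636 and 0.746.

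**Figure D4:**
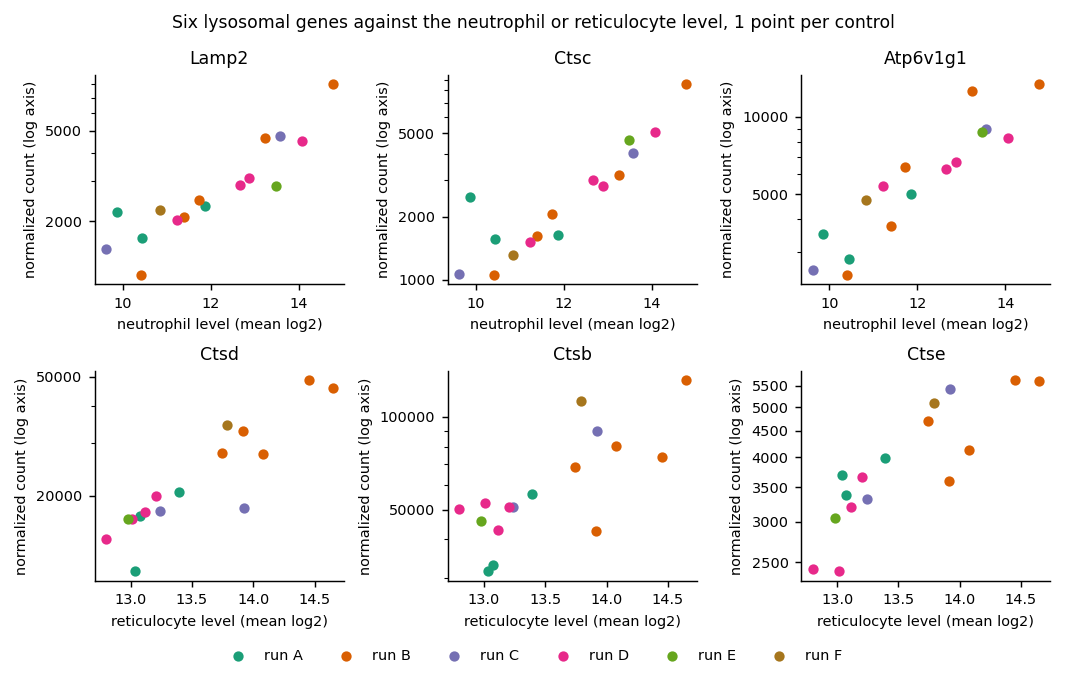
Normalized counts (log axis) of 3 genes against the neutrophil level and 3 against the reticulocyte level, both as mean log2(normalized count + 1), with 1 point per control colored by run. Lamp2, Ctsc and Atp6v1g1 rose with the neutrophil level, and the 2 libraries with the highest Ctsd and Ctse counts were of run B.

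Against the T-cell level 11 of the 31 genes fell and 1 rose, where 8.76% of all genes fell and 6.62% rose. The steepest falls were those of Ctsc (-0.65 ± 0.14), Lamp2 (-0.55 ± 0.11), Atp6v1g1 (-0.55 ± 0.13), Ctsz (-0.54 ± 0.13) and Ctsh (-0.47 ± 0.10), with edgeR adjusted p between 0.00905 and 0.0142, and Atp6v0e2 rose by 0.25 ± 0.05 (edgeR adjusted p = 0.0116). The T-cell and neutrophil levels ran opposite to each other (r = -0.673, permutation p = 0.00402, adjusted p = 0.0241 over 6 relations, rho = -0.673, permutation p = 0.00534, adjusted p = 0.032, and r = -0.759 centered within runs). Without control 8, which had the lowest T-cell and the highest neutrophil level, none of the 31 genes was called, and 0.292% of all genes fell and 0.458% rose. The slopes were then -0.57 for Ctsc, -0.48 for Lamp2, -0.55 for Atp6v1g1, -0.51 for Ctsz, -0.50 for Ctsh and 0.22 for Atp6v0e2, with edgeR adjusted p between 0.0545 and 0.0985. Scaled to total counts, no gene was called at all, and the median slope of all genes moved from 0.03 to 0.11.

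Between runs, the comparison of B with D called 1 lysosomal gene. Ctsd was 36486 ± 9962 (SD, n = 5) in run B and 17192 ± 2351 (SD, n = 4) in run D, with no overlap (27469 to 48505 against 14312 to 20000). It was lower in D by 1.07 ± 0.25 on the log2 scale (edgeR adjusted p = 0.0479), where 2.26% of all genes were lower and 0.0386% higher. The reticulocyte levels did not overlap either (13.7 to 14.6 in run B, 12.8 to 13.2 in run D), and 6 of the 10 reticulocyte genes were called lower in D, with a median of -1.11 over the 10. Their part in the difference of Ctsd was not tested. Leaving out 1 library moved the count to 2 (without control 4) or to 0 (without control 5, 7, 8, 10, 11, 12, 13 or 14), and scaling to total counts moved it to 0, where Ctsd differed by -0.53 and the median of all genes by 0.53. In run A, Ctsd was 16327 ± 4771 (SD, n = 3), and edgeR called neither a lysosomal gene nor any other (0%) in A against B or A against D. At an unadjusted p under 0.05, 5 of the 31 genes differed in A against B and 1 in A against D, where 13.6% and 5.41% of all genes did. DESeq2 called 3 as higher in B than in A (527 of all genes), and so did edgeR without control 4 (3.37% of all genes).

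The other genes of the pathway gave a wider frame for these values. Of 56 further lysosomal genes (enzymes, membrane proteins and transport factors), 15 rose and 3 fell with the neutrophil level, where 14% and 9.59% of all genes did, and 2 rose with the reticulocyte level, where 6.47% did. Their median neutrophil slope was 0.06, against 0.22 for the pump, cathepsin and Lamp genes. Cd63, a membrane protein of lysosomes and granules, rose by 0.90 ± 0.09 per SD (edgeR adjusted p = 7.94e-07), and Atp6ap2, an accessory protein of the pump, by 0.48 ± 0.06 (edgeR adjusted p = 2.8e-05). The second accessory protein, Atp6ap1, and Tcirg1, the a3 isoform of the pump, had neutrophil slopes of 0.15 and -0.13 that did not pass.

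Of 6 cathepsin inhibitors tested, 4 rose with the neutrophil level, where 14% of all genes did. Cstb, a cytosolic inhibitor of cysteine cathepsins, rose by 0.50 ± 0.08 (edgeR adjusted p = 0.000172), and Serpinb1a, an inhibitor of neutrophil serine proteases, by 2.43 ± 0.15 (edgeR adjusted p = 5.52e-09). Cst3, the secreted inhibitor, had a slope of 0.14 ± 0.19. Among the factors that bind the E-box shown above, Tfe3 rose by 0.70 ± 0.11 with the neutrophil level (edgeR adjusted p = 0.000168), while Tfeb had a slope of 0.12 ± 0.08 and Mitf, at a mean of 8.59 normalized counts, one of 0.16 ± 0.14. Of the 12 genes with a promoter that rose with the neutrophil level, 1 held the 8-letter core (Lamp1). Of the 3 with a promoter that rose with the reticulocyte level, 1 held it (Ctsd). The core stood in 4 of all 29 lysosomal genes with a promoter (13.8%) and in 1.02% of all promoters. The other genes that held it, Atp6v0d1 and Atp6v0e1, were called with neither level.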

How the data were processed

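Blood RNA of 16 saline controls, labelled as 1 group, was analysed. The authors aligned reads with Bowtie 0.12.9 to transcripts of rn5, a rat genome build, and the values they deposited are RSEM 1.2.0 estimated counts for each gene (CASAVA 1.8.2 also stands in the submitters' processing notes). No normalization had been applied, and the values were rounded here. Gene lists differed between files, so the 18031 genes that all files list were used, which took 99.99% or more of every library. RSEM divides reads that fit several genes, so values of near-identical genes are uncertain. Over the 120 pairs of libraries the lowest chi-square per degree of freedom was 48.0 (genes with a summed count of 20 or more), so none was a repeat of another.

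Slopes and run differences were tested with edgeR 4.0.16 (R 4.3.3; TMM, filterByExpr, glmQLFit and glmQLFTest, two-sided), with Benjamini-Hochberg adjustment over all genes tested and a threshold of 0.05. Levels used DESeq2 1.42.0 size factors and a pseudocount of 1, also in the refits with total count scaling. Correlations used 100000 permutations, two-sided. The code was tested on simulated data. Alternatives were total count scaling, no filter, DESeq2, run as a term, z-score levels, other marker genes and leaving out libraries. Leaving out controls 2, 8, 10 and 12 together, which stood apart in earlier results, and the joint reticulocyte fit were added after seeing the data. Figures were drawn with matplotlib 3.10.9 in Python 3.11.15, with pandas 2.3.3, scipy 1.17.1 and numpy 2.4.6.

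The genes and lists were chosen with earlier results of these data known. Named genes were the up to 4 with the highest mean in each class, the up to 5 called with the largest slope or change in each comparison and direction, and the 3 highest and 3 lowest in CV. Other genes named were chosen after their values were seen, or for their role in the pathway. The monocyte level includes 1 gene that is not reported here. The floor of 3 counts covers counting error only.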

Additional observations from a re-analysis of the deposited data

How the results depend on the processing

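No paired analysis was possible because all libraries belong to 1 group, so that no second group shares its replicate numbers. Counts of lysosomal genes past the threshold changed as follows, and the cause was not tested. With total count scaling, 7 rose with the neutrophil level (in place of 14), where 808 of all genes rose (1791). So scaled, 1 rose and 8 fell with the reticulocyte level (4 and 0), where 352 and 3950 of all genes did (825 and 17). With the T-cell level 0 rose and 0 fell (1 and 11), and no other gene was called either. The neutrophil slope was above the monocyte slope for 1 (3), where 98 of all genes were called (405). In run D 0 were lower than in B (1), where 6 of all genes were lower (293). With DESeq2, 1 rose with the monocyte level (0), where 156 of all genes rose (1). It called 2 as falling with the neutrophil level (1), where 1540 of all genes fell (1224). The monocyte slope was above the neutrophil slope for 1 (0), where 192 of all genes were called (73). The reverse held for 5 (3), where 876 of all genes were called (405). Higher in run B than A were 3 (0), where 527 of all genes were (0), and 2 were lower in run D than B, where 737 were (293). With no filter on low counts, 0 were lower in run D than B, where 203 of all genes were lower. With run as a term, 0 rose with the reticulocyte level, where 0 of all genes did. With that term 7 fell with the T-cell level, where 917 of all genes did. In the joint reticulocyte fit it left 1 with the reticulocyte slope above (3) and 0 with the neutrophil slope above (11). Of all genes, 46 and 286 were called there. With the monocyte genes of the study, 12 rose and 2 fell, where 1585 and 519 of all genes did.

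Without controls 2, 8, 10 and 12, 11 rose with the neutrophil level and 2 with the reticulocyte level, and 0 rose and 0 fell with the T-cell level. Of all genes, 1274 then rose with the neutrophil level and 464 with the reticulocyte level, and none was called with the T-cell level. Leaving out 1 library at a time gave 13 to 14 rising and 0 to 2 falling with the neutrophil level (2 without control 2, 4 or 15, 0 without control 8), 3 to 4 rising with the reticulocyte level, 0 to 1 rising and 0 to 14 falling with the T-cell level (0 only without control 8), 2 to 5 with the neutrophil slope above the monocyte slope (5 without control 4), 0 to 3 higher in run B than A (3 without control 4) and 0 to 2 lower in run D than B. Of all genes, 11.5% to 14.1% rose and 3.16% to 10.3% fell with the neutrophil level in these refits. With the reticulocyte level 3.96% to 6.9% rose, and with the T-cell level 0.458% to 9.08% rose and 0.292% to 11.5% fell. The neutrophil slope was above the monocyte slope for 1.5% to 4.22%. Between runs, 0% to 3.37% were higher in B than A and 0.0155% to 4.97% lower in D than B. Of 622 refits of single named genes, 544 kept their side of the threshold, 78 lost it and 0 changed direction. The monocyte list was the least coherent, and with it few genes of any kind could be called. The 5 genes that did not pass the filter could not be compared at this depth.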
